A study of Mus musculus with 8 samples.

Results

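The genes described here encode the TLR4 receptor complex and the proteins that carry its signal into the cell. They were chosen by name for their place in this pathway, with earlier results of these data known, and are 10 of the 55416 gene identifiers counted in mouse lung. *Lbp*, *Cd14*, *Ly96* and *Tlr4* encode the proteins that bring bacterial lipopolysaccharide (LPS, endotoxin) to the cell surface and bind it there. *Myd88*, *Ticam1* and *Ticam2* encode adaptors that carry a TIR domain, the protein module through which Toll-like receptors and adaptors bind each other. *Irak1*, *Irak4* and *Traf6* encode the kinases and the ubiquitin ligase that act after MyD88. All 10 had enough counts to be tested.

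LPS is handed from LPS-binding protein to CD14 and then to MD-2, the product of *Ly96*, which sits on the outer part of TLR4. Ligand binding pairs the receptors, and MyD88, with its bridging adaptor TIRAP, recruits the IRAK kinases and TRAF6 at the plasma membrane, a route that leads to NF-kappaB and to inflammatory cytokines. After the complex is taken up into endosomes, TRAM (*Ticam2*) and TRIF (*Ticam1*) start a separate route through TBK1 and IRF3 to type I interferon and the genes it induces. In lung, alveolar macrophages, recruited monocytes and neutrophils, endothelial cells and epithelial cells can all carry parts of this system.

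RNA was sequenced from lung tissue of 8 female C57BL/6J mice aged 6 to 8 weeks to ask how endotoxin shock, and an inhibitor given before it, changed the lung. The 3 control mice (labelled 1, 2 and 4) received DMSO and saline, and the 3 LPS mice (1, 6 and 7) received LPS at 35 mg/kg into the peritoneum. The 2 dual-treated mice (2 and 5) received YW3-56, an inhibitor of protein arginine deiminases dissolved in DMSO, at 10 mg/kg shortly before the same dose of LPS. Lungs were taken 24 h after LPS, and the study's methods name no vehicle injection for the LPS mice. The methods describe 3 sequenced mice per group, whereas a figure legend of the paper and the labels both give 2 dual-treated mice, and 2 were used. Total counts were 19061949, 19796242 and 20527836 in the control libraries, 20818501, 19379911 and 19279724 in the LPS libraries, and 19875939 and 20908608 in the dual-treatment libraries. Levels are given as CPM, counts scaled to a common library total, after TMM normalization, a scaling that equalizes the bulk of genes between libraries. A gene was called changed if its p from the quasi-likelihood test of edgeR, adjusted over 18560 genes by the method of Benjamini and Hochberg and written below as the edgeR adjusted p, was under 0.05. Errors of log2 fold changes (log2FC) are standard errors, and the control libraries serve in both comparisons against control.

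Among the LPS libraries, those of mice 6 and 7 stood apart through transcripts of squamous epithelium and skeletal muscle. The 7 squamous markers, of which *Krt13* was the most abundant, summed to 36.0 CPM in LPS mouse 1, 798 in mouse 6 and 2115 in mouse 7, against 29.0 to 46.0 in control and 44.7 and 56.7 in dual-treated mice. The 6 muscle markers, led by *Acta1*, summed to 15.9, 434 and 1158 CPM in the same LPS mice, against 8.17 to 18.2 in control and 4.27 and 5.75 in dual-treated mice. Of these lists, 6 of 7 and 6 of 6 genes were called higher in LPS than in control lungs, while LPS mouse 1 had 0 counts of *Krt4*, *Sprr3*, *Krtdap* and *Myh1*. Because of these libraries, the values of the members with LPS mouse 1 alone in its group are also given where they differ, an alternative chosen after seeing the data in which the lone mouse is assumed to vary like the other groups.

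Markers of blood-derived and resident cells differed between the groups as well. The 8 neutrophil markers, led by *S100a9*, summed to 231, 128 and 134 CPM in control mice, 2190, 3059 and 1915 in LPS mice, and 1800 and 2483 in dual-treated mice. All 8 were called higher with LPS and 7 of 8 with the dual treatment. In dual-treated lungs 4 of 8 were higher than with LPS alone and 1, *Ly6g*, was lower (log2FC -2.75 ± 0.692, edgeR adjusted p = 0.00732). *Ly6g* stood at 10.1, 26.7 and 11.5 CPM in LPS mice and at 0.908 and 3.86 CPM in dual-treated mice, so the sum does not stand for each marker. The 4 monocyte markers, led by *Plac8*, summed to 45.6 to 48.5 CPM in control, 448, 435 and 287 in LPS and 285 and 312 in dual-treated mice. With LPS 3 of them rose and *Ccr2* fell, and with the dual treatment 4 of 4 rose. The 4 macrophage markers, led by *Csf1r*, ran differently. They summed to 176, 156 and 194.5 CPM in control, 128, 126 and 97.3 in LPS, and 407 and 533.5 in dual-treated mice, with 2 of 4 lower in LPS than in control and 4 of 4 higher in dual-treated than in either other group. Markers of alveolar macrophages (5 genes, led by *Chil3*) fell for 2 genes with LPS and rose for 1 with the dual treatment. The number higher with LPS was 0 by edgeR's quasi-likelihood test and 2 by DESeq2. Their sums were 704, 465 and 650 CPM in control, 762, 862 and 400 in LPS, and 885 and 1432.5 in dual-treated mice. Lung identity was plain from *Sftpc*, *Ager* and *Cdh5*, the most abundant markers of alveolar type 2, alveolar type 1 and endothelial cells. With LPS 5 of 6, 2 of 4 and 2 of 4 genes of those lists fell. With the dual treatment against control, 2 of 4 alveolar type 1 genes were lower, and 1 endothelial gene was higher and 1 lower. Between the LPS groups, 2 of 4 alveolar type 1 genes were higher in dual-treated lungs and 1 was lower. In the same comparison 2 of 6 alveolar type 2 and 2 of 4 endothelial genes were higher. The alveolar type 1 gene that was lower, *Ager*, had overlapping levels in the LPS groups. *Ager* was not called with LPS (log2FC -0.26 ± 0.225) but was lower in dual-treated lungs than in control (-0.94 ± 0.258, edgeR adjusted p = 0.0376) and than with LPS (-0.68 ± 0.256, edgeR adjusted p = 0.0440). Both calls were lost without control mouse 1, 2 or 4, LPS mouse 6 or dual-treated mouse 2 (edgeR adjusted p from 0.0521 to 0.208 and from 0.0543 to 0.214), and the latter also without LPS mouse 1 (edgeR adjusted p = 0.11), under scaling by total count only and with only the compared groups in the fit. Fibroblast markers, led by *Pdgfra*, had 1 of 4 genes higher and 1 lower with LPS, and B and T cell markers, led by *Cd79a*, had 2 of 4 lower. In bulk tissue, fewer cells of a type and less RNA per cell cannot be told apart, and the part that these cell populations had in the values of the TLR4 genes was not tested.

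With LPS, 6 of the 10 genes were higher than in control and 2 were lower. Over all 18560 genes, 66.5% were called in this comparison, 32.6% as higher and 33.9% as lower, so the number of members called was not far from that background, while the higher calls outnumbered the lower ones. Scaled by total count only, the counts were 4 higher and 3 lower. The count of 2 lower became 1 without control mouse 1, 2 or 4 or LPS mouse 1 or 7, each of which took the call from *Tlr4*. The median log2FC was 0.55 over the 10 genes and -0.01 over all genes. With the dual treatment, 4 of 10 were higher than in control, where 16.1% of all genes were called, 9.13% as higher and 7.02% as lower. The number lower was 0 by edgeR's quasi-likelihood test, 0 at an unadjusted p under 0.05 and 0 by DESeq2. Here the medians were 0.62 and 0.00. Between the LPS groups, 3 members were higher in dual-treated than in lungs given LPS alone and 4 were lower, beside 59.1% of all genes called, 31.7% as higher and 27.4% as lower. The medians were -0.12 and 0.06. With LPS mouse 1 alone in its group, the counts against control were 4 higher and 1 lower, and those between the LPS groups were 3 and 4.

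**Figure D1:**
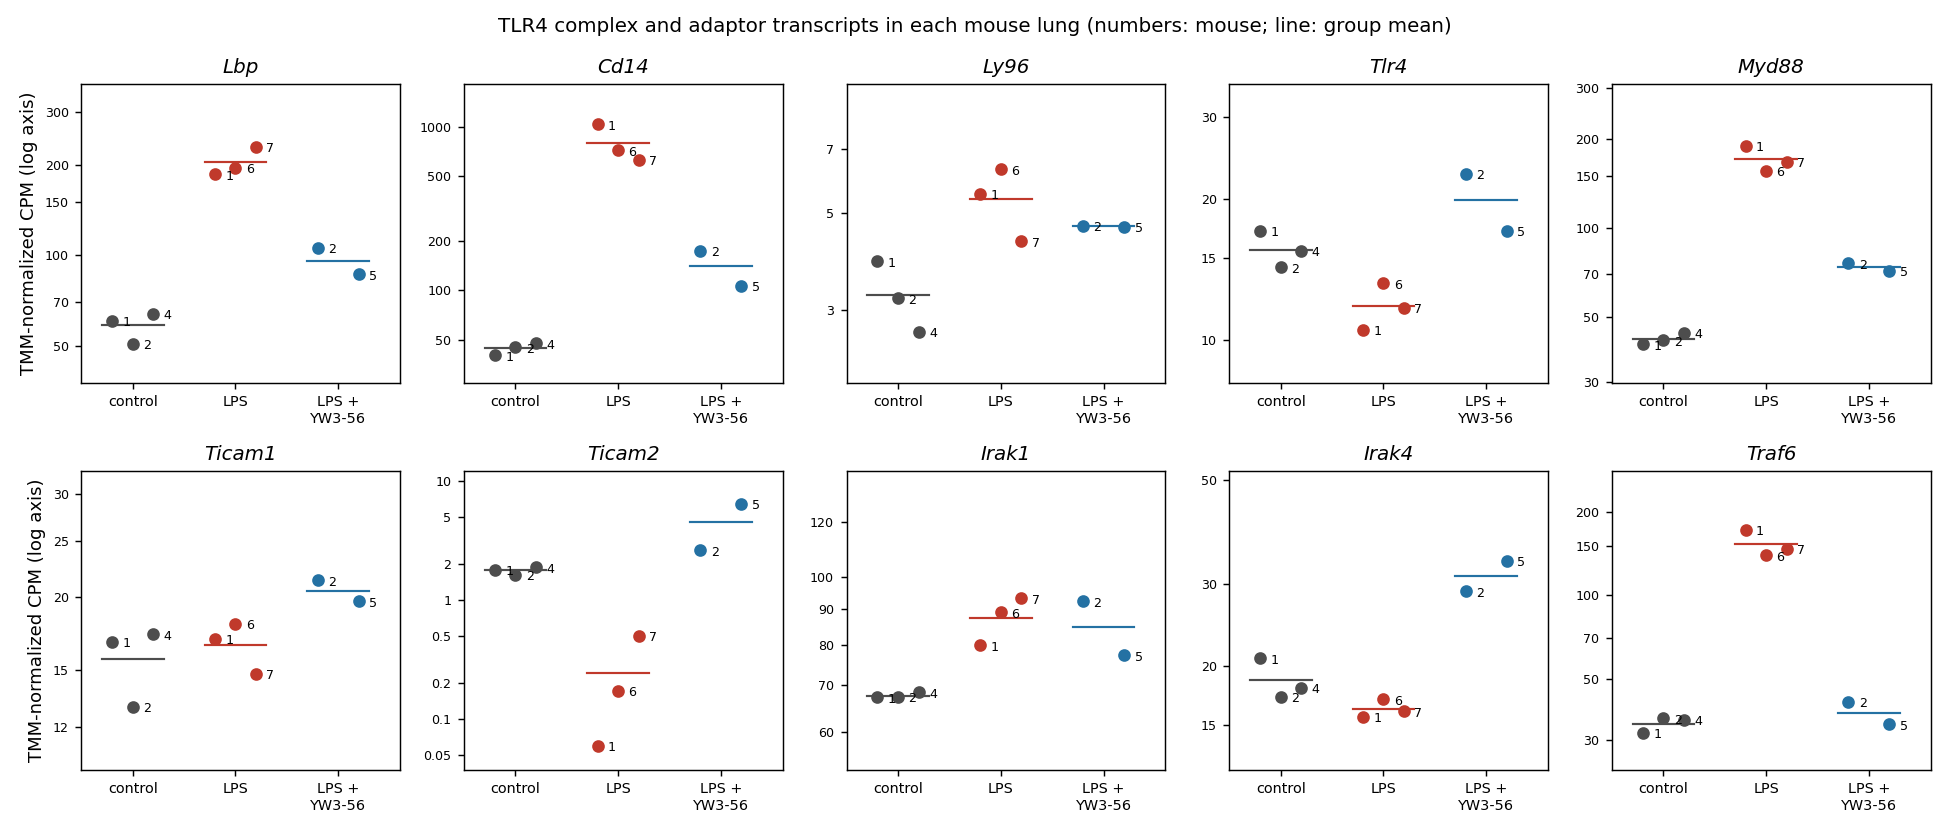
Each panel shows 1 gene, with TMM-normalized CPM on a log axis for every mouse, the mouse number beside each point and a line at the group mean. *Cd14*, *Lbp*, *Myd88* and *Traf6* are highest in all 3 LPS mice, whereas *Ticam2* is lowest in them, at 0.0593 to 0.502 CPM.

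The genes of LPS transfer and recognition moved in different directions. *Cd14*, the membrane protein that passes LPS to the receptor, lies at chr18:36858120-36859851 on the minus strand of GRCm39. Its level was 40.2, 45.0 and 47.5 CPM in the control mice, 1036, 719 and 629 CPM in LPS mice 1, 6 and 7, and 174 and 107 CPM in dual-treated mice 2 and 5. No value of a group reached that of another group, and the dual-treated mice lay between. The rise with LPS had a log2FC of 4.17 ± 0.247, or 18.0-fold (edgeR adjusted p = 1.34e-06). Dual-treated lungs were above control by 1.67 ± 0.242 on the log2 scale (edgeR adjusted p = 0.00203) and below LPS lungs, with a log2FC of -2.50 ± 0.268 (edgeR adjusted p = 5.82e-05). *Cd14* is a marker of the myeloid lineage. Among LPS mice 1, 6 and 7 the monocyte sum (448, 435 and 287 CPM) and the macrophage sum (128, 126 and 97.3 CPM) ran in the same order as *Cd14*, whereas the neutrophil sum was highest in mouse 6. Across the groups this order did not hold. Dual-treated mice 2 and 5 had macrophage sums of 407 and 533.5 CPM, above all LPS mice, and monocyte sums of 285 and 312 CPM, close to LPS mouse 7, with far less *Cd14*. The part of these cells in the *Cd14* values was not tested. LPS mouse 1, with the highest *Cd14*, had the lowest squamous and muscle sums of its group, and with this mouse alone the log2FC against control was 4.56.

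*Lbp* encodes the secreted protein that extracts LPS from bacterial membranes and is known above all as an acute-phase product of liver. It lies at chr2:158148409-158174800 on the plus strand. In control mice it stood at 60.6, 50.9 and 64.0 CPM, in LPS mice at 186, 195 and 229.5 CPM, and in dual-treated mice at 106 and 86.6 CPM. Again the groups did not overlap and dual-treated mice lay between control and LPS. The log2FC was 1.80 ± 0.133 with LPS (edgeR adjusted p = 3.65e-06), 0.72 ± 0.143 with the dual treatment (edgeR adjusted p = 0.00978) and -1.08 ± 0.149 between the LPS groups (edgeR adjusted p = 0.000237). Without dual-treated mouse 2 the call against control was lost, with a log2FC of 0.54 and an edgeR adjusted p of 0.109. Hepatocyte transcripts were near 0 in these lungs. The 5 hepatocyte markers, led by *Ahsg*, summed to at most 2.18 CPM in any library. *Alb* had 8 to 19 counts in control and LPS mice and 1 and 0 in dual-treated mice. *Ahsg* ran differently, with 14, 16 and 8 counts in control mice, 1 in each LPS mouse, and 41 and 10 in dual-treated mice.

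*Tlr4*, the signalling receptor itself, went the other way. The gene lies at chr4:66745783-66849936 on the plus strand. Control mice had 17.1, 14.3 and 15.5 CPM, LPS mice 10.5, 13.2 and 11.7 CPM, and dual-treated mice 22.7 and 17.1 CPM. Every LPS mouse was below every control mouse, and dual-treated mouse 5 stood level with control mouse 1. The fall with LPS was small, with a log2FC of -0.40 ± 0.156 (edgeR adjusted p = 0.0438). It did not hold in DESeq2 (adjusted p = 0.0700) or with RLE size factors, nor without control mouse 1, 2 or 4 or LPS mouse 1 or 7, where the edgeR adjusted p was 0.139, 0.0506, 0.104, 0.131 and 0.0818. With LPS mouse 1 alone the log2FC was -0.57 and the edgeR adjusted p 0.0569. Dual-treated lungs were higher than LPS lungs by 0.75 ± 0.171 (edgeR adjusted p = 0.00428), and without dual-treated mouse 2 by 0.51, which missed the threshold (edgeR adjusted p = 0.0673). Against control the dual-treatment log2FC was 0.35 ± 0.170 and not called (edgeR adjusted p = 0.200). The macrophage marker sum was likewise lowest in LPS and highest in dual-treated lungs, but this order was not particular to it. The mean endothelial sum was 2284, 1639 and 2368 CPM in control, LPS and dual-treated lungs, and that of B and T cells 20.4, 8.78 and 26.2 CPM. For both, control and dual-treated mice overlapped. The mean alveolar macrophage sum, at 606, 674.5 and 1159 CPM, was not lowest in LPS. The part of these cells in the *Tlr4* values was not tested.

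*Ly96*, which encodes the LPS-binding subunit MD-2, was the least counted receptor gene, with 58 to 109 counts per library. The gene lies at chr1:16758275-16779961 on the plus strand. Its level was 3.87, 3.19 and 2.67 CPM in control, 5.52, 6.29 and 4.30 CPM in LPS, and 4.67 and 4.65 CPM in dual-treated mice. All LPS and dual-treated mice were above all control mice, but the treated groups overlapped. With LPS the log2FC was 0.73 ± 0.229 (edgeR adjusted p = 0.0181). That call was lost without control mouse 2, control mouse 4 or LPS mouse 6, with edgeR adjusted p of 0.0549, 0.0753 and 0.0623, with LPS mouse 1 alone (0.0519) and when libraries were scaled by total count only (0.123). The dual-treatment values of 0.53 ± 0.252 against control (edgeR adjusted p = 0.194) and -0.20 ± 0.252 against LPS (edgeR adjusted p = 0.510) were not called.

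A ratio of 2 transcripts within a library does not depend on how libraries are scaled. Per *Tlr4* count there were 2.35, 3.15 and 3.07 *Cd14* counts in control mice, 98.6, 54.3 and 53.7 in LPS mice, and 7.67 and 6.26 in dual-treated mice. For *Ly96*, whose product binds TLR4 directly, the ratio was 0.226, 0.224 and 0.172 in control, 0.525, 0.476 and 0.367 in LPS, and 0.206 and 0.272 in dual-treated mice. The LPS mice were thus above all others for both genes, while control and dual-treated mice overlapped for *Ly96*. *Lbp* stood at 3.54 to 4.13 counts per *Tlr4* count in control, 14.8 to 19.6 in LPS and 4.65 and 5.06 in dual-treated mice. Of 27 such comparisons of log2 ratios (9 genes, 3 group pairs), 20 reached an exact two-sided permutation p of 0.1. This is the smallest p that 3 mice against 3, or 3 against 2, can give, and it was 0.135 after Benjamini-Hochberg adjustment, so no ratio could pass 0.05. These ratios are of counts and were not divided by length, so they give differences between groups and not the proportion of molecules.

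The TIR adaptors split 3 ways. *Myd88*, the adaptor shared by nearly all Toll-like receptors, lies at chr9:119165000-119170486 on the minus strand. Its level was 40.4, 41.6 and 44.1 CPM in control, 191, 157 and 168 CPM in LPS, and 76.0 and 71.8 CPM in dual-treated mice. The groups were well apart, with little spread inside any of them. The log2FC was 2.03 ± 0.101 with LPS (edgeR adjusted p = 6.41e-07), 0.81 ± 0.108 with the dual treatment (edgeR adjusted p = 0.00130) and -1.22 ± 0.113 between the LPS groups (edgeR adjusted p = 2.62e-05). *Myd88* shares 628 exon bases, 16.2% of its own, with *Acaa1a* on the opposite strand. The library protocol names no step that keeps the strand, so reads from these bases cannot be told apart. *Acaa1a* had a log2FC of 0.39 with LPS (edgeR adjusted p = 0.0124) and -0.15 between the LPS groups (edgeR adjusted p = 0.323).

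*Ticam1*, which encodes TRIF, was not called in any comparison with TMM normalization. The gene lies at chr17:56576319-56583786 on the minus strand. Control mice had 16.8, 13.0 and 17.3 CPM, LPS mice 17.0, 18.0 and 14.8 CPM, and dual-treated mice 21.4 and 19.7 CPM. Control and LPS mice overlapped, and both dual-treated mice were above all others. The log2FC was 0.08 ± 0.145 with LPS, with an edgeR adjusted p of 0.653, and it turned to -0.04 without control mouse 2 and to -0.21 under scaling by total count only. Against control the dual-treatment log2FC was 0.38 ± 0.159 (edgeR adjusted p = 0.136), and against LPS it was 0.30 ± 0.160 (edgeR adjusted p = 0.126). Scaled by total count only, the latter was 0.63 and passed (edgeR adjusted p = 0.00738).

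*Ticam2* encodes TRAM, the adaptor that links TLR4 to TRIF in endosomes. It lies at chr18:46690358-46707600 on the minus strand. Of the 10 genes it had the lowest CPM in all mice but dual-treated mouse 5, where *Ly96* was lower at 4.65 CPM. Divided by exon length, its level was the lowest in every mouse. The control mice had 37, 35 and 41 counts, the LPS mice had 1, 3 and 9, and 58 and 147 were counted in the dual-treated mice. As CPM these are 1.81, 1.64 and 1.89 in control, 0.0593, 0.173 and 0.502 in LPS, and 2.63 and 6.45 in dual-treated mice. LPS mice were below all others, and the dual-treated mice, although both above control, were far apart. The log2FC was -2.81 ± 0.596 with LPS (edgeR adjusted p = 0.00231) and 4.16 ± 0.612 between the LPS groups (edgeR adjusted p = 0.000355). LPS mouse 7 weighed on the size of both: without it they were -3.85 and 5.20. Without dual-treated mouse 5 the latter was 3.35, and with LPS mouse 1 alone the values were -4.77 and 6.12. The dual-treatment log2FC against control was 1.35 ± 0.506 and not called (edgeR adjusted p = 0.101), but it passed without LPS mouse 7 (edgeR adjusted p = 0.0477), without a filter on low counts (0.0368) and with only the compared groups in the fit (0.0439). Without dual-treated mouse 5 it was 0.53 (edgeR adjusted p = 0.607), and without dual-treated mouse 2 it was 1.82 and not called.

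*Ticam2* overlaps another gene. Of its annotated exon bases 3782, or 65.3%, are also exons of *Tmed7*, on the same strand, and how reads in shared exons were assigned is not given in the sources used here. *Tmed7*, which encodes a protein of the secretory pathway, had 74.7, 74.2 and 77.1 CPM in control, 125, 125 and 129.9 CPM in LPS, and 82.0 and 72.7 CPM in dual-treated mice. It rose with LPS (log2FC 0.75 ± 0.0838, edgeR adjusted p = 3.97e-05) while *Ticam2* fell. The *Tmed7* rise, from a mean of 75.3 CPM in control to 126.9 in LPS lungs, was far larger than the whole mean *Ticam2* level in control, 1.78 CPM. How far the assignment of shared reads entered the *Ticam2* values cannot be told from these counts.

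TIRAP, the adaptor that brings MyD88 to TLR4, is not among the 10 genes and is given for comparison. *Tirap* stood at 18.1, 16.1 and 14.2 CPM in control, 25.9, 26.1 and 33.9 CPM in LPS, and 21.4 and 17.1 CPM in dual-treated mice. It rose with LPS in all 3 mice (log2FC 0.83 ± 0.156, edgeR adjusted p = 0.00113) and was lower in dual-treated than in lungs given LPS alone (-0.57 ± 0.175, edgeR adjusted p = 0.0186). Without dual-treated mouse 5 the latter call was lost (-0.44, edgeR adjusted p = 0.124), as it was with LPS mouse 1 alone (edgeR adjusted p = 0.111) and under scaling by total count only.

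Downstream of MyD88, *Traf6* stood out. TRAF6 is the ubiquitin ligase at which the MyD88 route branches toward NF-kappaB and MAP kinases, and its gene lies at chr2:101508519-101533545 on the plus strand. Control mice had 32.0, 36.0 and 35.6 CPM, LPS mice 172, 139 and 147 CPM, and dual-treated mice 41.3 and 34.3 CPM. The LPS mice were well above the rest, and control and dual-treated mice overlapped. The log2FC was 2.15 ± 0.118 with LPS, or 4.42-fold (edgeR adjusted p = 9.51e-07), and -2.02 ± 0.136 between the LPS groups (edgeR adjusted p = 6.71e-06). For the dual treatment against control it was 0.13 ± 0.128 (edgeR adjusted p = 0.541), and -0.04 without dual-treated mouse 2. Per *Tlr4* count, *Traf6* had 1.87, 2.53 and 2.30 counts in control, 16.4, 10.5 and 12.5 in LPS, and 1.82 and 2.00 in dual-treated mice.

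*Irak4* encodes the kinase that first joins MyD88 and phosphorylates IRAK1. It lies at chr15:94441161-94479696 on the plus strand. Its level was 20.8, 17.2 and 18.0 CPM in control, 15.6, 17.0 and 16.0 CPM in LPS, and 28.9 and 33.6 CPM in dual-treated mice. Both dual-treated mice were above the other 6, and the LPS mice lay just under the control mice. The dual treatment gave a log2FC of 0.74 ± 0.131 against control (edgeR adjusted p = 0.00550) and 0.95 ± 0.131 against LPS (edgeR adjusted p = 0.000252). With LPS the value of -0.21 ± 0.121 was not called (edgeR adjusted p = 0.156). Scaled by total count only, it was -0.49 and passed (edgeR adjusted p = 0.00876). The macrophage markers also rose in dual-treated lungs, and their part in the *Irak4* values was not tested. *Irak4* shares exon bases on opposite strands with *Twf1* (647 bases, 10.3% of its own) and *Pus7l* (341 bases, 5.41%). *Twf1* had a log2FC of 1.01 with LPS (edgeR adjusted p = 1.01e-05), 0.17 with the dual treatment (edgeR adjusted p = 0.277) and -0.83 between the LPS groups (edgeR adjusted p = 0.000116). *Pus7l*, at 3.57 to 5.35 CPM, was not called in any comparison. The part of reads from the shared bases in the *Irak4* values was not tested.

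*Irak1*, whose product is phosphorylated by IRAK4 and then engages TRAF6, lies at chrX:73056964-73067554 on the minus strand. Control mice had 67.2, 67.3 and 68.3 CPM, LPS mice 79.8, 89.0 and 93.3 CPM, and dual-treated mice 92.4 and 77.2 CPM. Both treated groups were above control and overlapped each other. The log2FC was 0.37 ± 0.0986 with LPS (edgeR adjusted p = 0.00808). It fell to 0.09 (edgeR adjusted p = 0.541) when libraries were scaled by total count only and was 0.24 (edgeR adjusted p = 0.129) with LPS mouse 1 alone. The dual treatment gave 0.33 ± 0.109 against control (edgeR adjusted p = 0.0727) and -0.04 ± 0.11 against LPS (edgeR adjusted p = 0.750), neither of them called. The former passed with only the compared groups in the fit (0.34, edgeR adjusted p = 0.0453) and was 0.16 without dual-treated mouse 2 (edgeR adjusted p = 0.553). The latter turned to 0.06 without dual-treated mouse 5 and to 0.28 under scaling by total count only.

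Scaling by total count only moved the median log2FC of all genes to -0.29 with LPS and to 0.38 between the LPS groups. Such a scaling shifts all genes of a comparison by about the same amount, so it moved the members with the rest, and the calls it took from *Ly96* and *Irak1* with LPS depend on this choice.

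**Figure D2:**
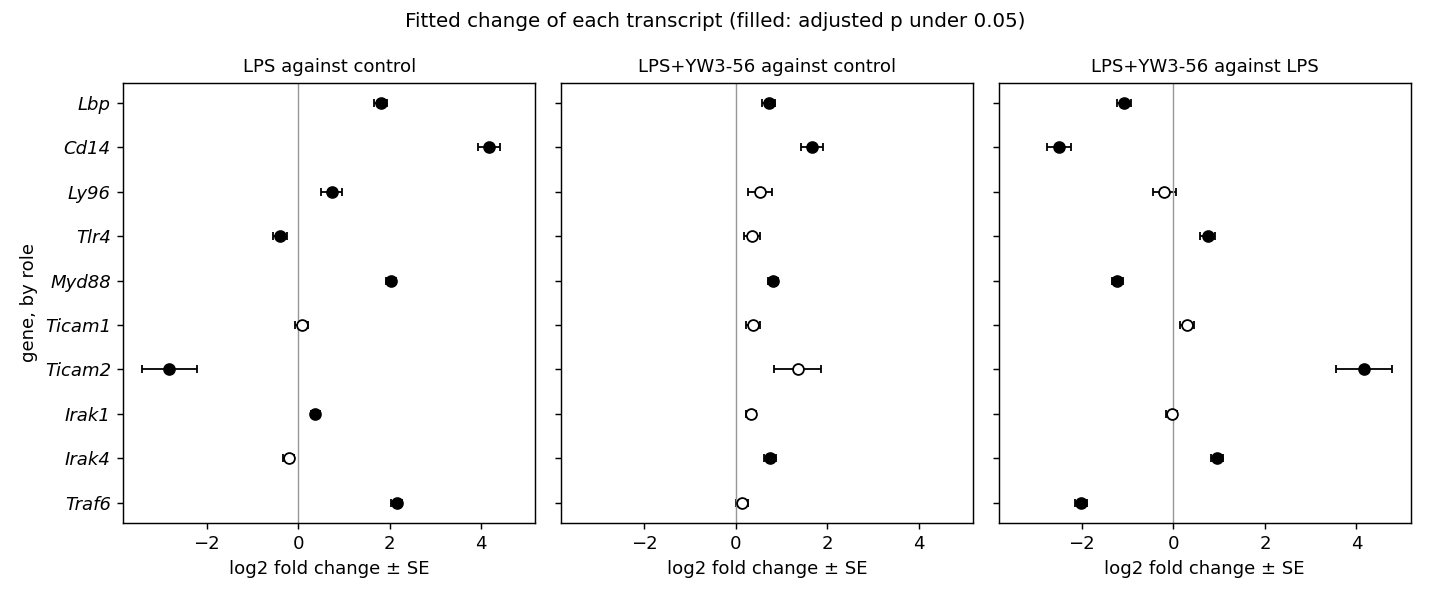
Fitted log2 fold changes of the 10 genes with their standard errors in the 3 comparisons, on one horizontal scale, with filled points for an adjusted p under 0.05. The widest error bars belong to *Ticam2*, which has 1 to 9 counts in LPS libraries. *Irak4* is called in dual-treated lungs against both other groups and is not called between LPS and control.

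To compare levels between genes, CPM was divided by the kilobases of annotated exon, which lowers the value of a gene whose longest isoforms are little used. On this scale of CPM per kb, the control order ran from *Cd14* at 25.5 ± 2.15 (SD, n = 3) through *Irak1* at 12.1 ± 0.113, *Lbp* at 12.0 ± 1.40 and *Myd88* at 10.8 ± 0.482 to *Ticam1* at 5.26 ± 0.783. *Traf6* at 3.33 ± 0.216, *Irak4* at 2.97 ± 0.302, *Ly96* at 2.62 ± 0.486 and *Tlr4* at 2.23 ± 0.205 followed, and *Ticam2* was last at 0.307 ± 0.0215. Neighbours from *Irak1* to *Myd88* and from *Traf6* to *Tlr4* overlapped between mice, whereas *Cd14*, *Ticam1* and *Ticam2* stood clear of theirs. The receptor was thus among the least abundant transcripts of its own complex, above *Ticam2* and overlapping *Ly96* in control lungs.

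In LPS lungs *Cd14* reached 459 ± 123 CPM per kb (SD, n = 3), with *Myd88* at 44.2 ± 4.44 and *Lbp* at 41.8 ± 4.73 next and overlapping. *Irak1* at 15.7 ± 1.24 and *Traf6* at 14.7 ± 1.65 also overlapped. Then came *Ticam1* at 5.55 ± 0.534 and *Ly96* at 4.34 ± 0.814, which overlapped, *Irak4* at 2.57 ± 0.112, *Tlr4* at 1.69 ± 0.195 and *Ticam2* at 0.0423 ± 0.0397. *Traf6* thereby stood near *Irak1*, whereas in control it stood near *Irak4*. In dual-treated lungs the order was *Cd14* at 81.3 ± 27.4 (SD, n = 2), *Lbp* at 19.8 ± 2.78, *Myd88* at 19.0 ± 0.769 and *Irak1* at 15.2 ± 1.93. *Ticam1* at 6.86 ± 0.403, *Irak4* at 4.96 ± 0.525, *Ly96* at 3.77 ± 0.0117, *Traf6* at 3.65 ± 0.478, *Tlr4* at 2.84 ± 0.566 and *Ticam2* at 0.784 ± 0.467 followed. *Ly96* and *Traf6* overlapped in these mice, as did *Lbp* and *Myd88*.

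Other adaptors and IRAK2 were looked at beside the members. Of *Tirap*, *Sarm1*, *Irak2* and *Pik3ap1*, 3 were higher with LPS and 1 lower, 1 was higher with the dual treatment, and 3 were lower in dual-treated than in lungs given LPS alone. *Irak2*, a kinase that sustains the MyD88 signal, had a log2FC of 1.74 ± 0.111 with LPS (edgeR adjusted p = 1.89e-06), 0.12 ± 0.122 with the dual treatment (not called) and -1.62 ± 0.128 between the LPS groups (edgeR adjusted p = 1.21e-05). These values lie close to those of *Traf6*. *Sarm1*, with 1 to 20 counts per library, fell with LPS (-2.15, edgeR adjusted p = 0.0154), a call lost without control mouse 2 (edgeR adjusted p = 0.0523), with only the compared groups in the fit and, at -1.23, with LPS mouse 1 alone (edgeR adjusted p = 0.244), and its log2FC was -2.96 without LPS mouse 1. *Pik3ap1*, the adaptor BCAP, rose with the dual treatment (0.69, edgeR adjusted p = 0.0196), a call lost without control mouse 2 or 4 or dual-treated mouse 5 (edgeR adjusted p = 0.0734, 0.0764 and 0.125).

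Genes for folding and transport of TLR4 went both ways. Of *Hsp90b1*, *Cnpy3*, *Cnpy4*, *Tmed7*, *Rab11a* and *Rab10*, 2 rose and 1 fell with LPS, and 1 was higher and 2 were lower in dual-treated than in lungs given LPS alone. Of these counts, the 1 that fell became 3 under scaling by total count only and 2 with only the compared groups in the fit. Between the LPS groups the counts became 4 higher and 1 lower under that scaling, and 2 were higher without dual-treated mouse 2. With the dual treatment against control 0 of 6 were called by edgeR's quasi-likelihood test, 0 at an unadjusted p under 0.05 and 0 by DESeq2. *Cnpy4*, a partner of TLR4 in the secretory pathway, was the gene that fell, from 24.2, 22.3 and 23.5 CPM in control to 5.93, 6.58 and 5.86 CPM in LPS mice, and it stood at 26.2 and 29.3 CPM in dual-treated mice. Its log2FC was -1.93 ± 0.120 with LPS (edgeR adjusted p = 1.65e-06) and 2.18 ± 0.128 between the LPS groups (edgeR adjusted p = 3.97e-06). *Hsp90b1*, the chaperone gp96 on which TLR4 depends, was not called in any comparison with TMM normalization.

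Among 11 other Toll-like receptors, 6 were higher and 4 lower with LPS, 5 were higher and 1 lower with the dual treatment, and 4 were higher and 2 lower in dual-treated than in lungs given LPS alone. *Tlr2*, the receptor for bacterial lipoproteins, had 14.4, 13.4 and 14.0 CPM in control, 145, 95.1 and 76.6 CPM in LPS, and 38.3 and 33.7 CPM in dual-treated mice. Its log2FC between the LPS groups was -1.55 ± 0.233 (edgeR adjusted p = 0.000400). *Tlr1*, which pairs with TLR2, had 3.18, 2.72 and 2.16 CPM in control, 1.19, 1.91 and 1.28 CPM in LPS, and 15.4 and 17.5 CPM in dual-treated mice. Its log2FC was -0.88 ± 0.252 with LPS (edgeR adjusted p = 0.0117) and 3.49 ± 0.264 between the LPS groups (edgeR adjusted p = 9.88e-06), so the partners TLR1 and TLR2 differed in pattern. *Tlr13*, a sensor of bacterial ribosomal RNA, rose by 2.98 ± 0.194 with LPS (edgeR adjusted p = 2e-06) and by 3.05 ± 0.204 with the dual treatment (edgeR adjusted p = 3.95e-05). *Tlr11* had 17, 7 and 11 counts in control, 0 in each LPS library and 1 in each dual-treatment library. It was at least 3.21-fold lower with LPS, taking 3 counts per library as the floor. Control exceeded the dual treatment 12.4-fold (95% exact interval 3.17 to 106, for counting error only), a call lost without control mouse 2 or dual-treated mouse 2 or 5 (edgeR adjusted p = 0.0617, 0.207 and 0.142) and not made by DESeq2. Without control mouse 1 or 4 the gene was not tested. The median log2FC of the list with LPS was 0.75, also with *Tlr11* at its bound.

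Signalling genes below TRAF6 mostly rose with LPS. Of 11 genes for the ubiquitin, TAK1 and IKK steps, 8 were higher with LPS, with a median log2FC of 0.55. In dual-treated lungs 1 was higher than in control (2 without LPS mouse 7) and 6 were lower than in lungs given LPS alone. Scaled by total count only, 5 were higher with LPS and 4 lower between the LPS groups. *Map3k8*, the kinase TPL2, had a log2FC of 2.42 ± 0.175 with LPS (edgeR adjusted p = 3.25e-06), 1.22 ± 0.185 with the dual treatment (edgeR adjusted p = 0.00257) and -1.20 ± 0.191 between the LPS groups (edgeR adjusted p = 0.000551). At the lower end, *Ikbkb*, the kinase IKK-beta, rose by 0.46 ± 0.122 with LPS (edgeR adjusted p = 0.00768). The log2FC of *Ube2n*, the ubiquitin-conjugating enzyme that works with TRAF6, was 0.62 ± 0.101 with LPS (edgeR adjusted p = 0.000454) and -0.30 ± 0.112 between the LPS groups (edgeR adjusted p = 0.0428). The latter was lost without control mouse 1 or 2, LPS mouse 1 or 6, or dual-treated mouse 5, with edgeR adjusted p of 0.0608, 0.0653, 0.0848, 0.0973 and 0.160, and with LPS mouse 1 alone (0.0529). *Map3k7*, which encodes TAK1, and *Tab1*, which encodes its binding partner, were not called in any comparison.

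In the TRIF branch, 6 of 7 genes were higher with LPS and 1 was lower. With the dual treatment 4 were higher than in control, and between the LPS groups 1 was higher and 4 were lower in dual-treated lungs. The kinase gene *Tbk1* had a log2FC of 2.02 ± 0.119 with LPS (edgeR adjusted p = 1.33e-06) and -1.74 ± 0.136 between the LPS groups (edgeR adjusted p = 1.14e-05). Its substrate *Irf3* fell, from 98.4, 107 and 107.5 CPM in control to 29.5, 37.7 and 34.3 CPM in LPS mice, and was at 98.7 and 99.6 CPM in dual-treated mice (edgeR adjusted p = 1.89e-06 with LPS and 8.27e-06 between the LPS groups). *Irf7*, an interferon-induced relative of IRF3, rose with both treatments. It had 23.4, 28.2 and 23.3 CPM in control, 824, 740 and 630.5 CPM in LPS, and 329.5 and 193 CPM in dual-treated mice, with a log2FC of 4.87 ± 0.227 with LPS (edgeR adjusted p = 5.54e-07) and 3.39 ± 0.223 with the dual treatment (edgeR adjusted p = 3.95e-05). *Tank* rose with the dual treatment by 0.51 (edgeR adjusted p = 0.0305), a call lost without any 1 control mouse or dual-treated mouse 2 (edgeR adjusted p from 0.0903 to 0.315). Hence the adaptor gene *Ticam1* was not called with LPS, while the kinases and the factor IRF7 of its branch rose and *Irf3* fell. Counts of *Ticam2* fell as well, with the limit set by the exons it shares with *Tmed7*.

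Genes known as brakes on TLR4 signalling rose broadly with LPS. Of 15, 13 were higher and 1 was lower, 7 were higher with the dual treatment, and 2 were higher and 10 lower in dual-treated than in lungs given LPS alone, with 6 lower under scaling by total count only. *Tnfaip3*, the deubiquitinase A20 that acts on TRAF6, had 25.2, 26.1 and 29.0 CPM in control, 1020, 661 and 623 CPM in LPS, and 152 and 73.6 CPM in dual-treated mice. Its log2FC was 4.84 ± 0.309 with LPS (edgeR adjusted p = 1.88e-06) and 2.08 ± 0.296 with the dual treatment (edgeR adjusted p = 0.00187), and without dual-treated mouse 2 the latter was 1.43. *Socs1*, a suppressor of cytokine signalling, had 4.75, 5.54 and 5.52 CPM in control, 150, 81.5 and 94.6 CPM in LPS, and 5.99 and 4.92 CPM in dual-treated mice. *Aoah*, which encodes the enzyme that deacylates LPS, was about as high in dual-treated as in LPS lungs, at 19.5 and 19.0 CPM against 19.9, 23.6 and 17.7 CPM, with 0.552 to 1.42 CPM in control. Its log2FC was 4.49 ± 0.288 with LPS (edgeR adjusted p = 1.89e-06) and 4.41 ± 0.299 with the dual treatment (edgeR adjusted p = 3.95e-05). *Sigirr*, an inhibitory receptor with a TIR domain, fell with LPS (-1.67 ± 0.154, edgeR adjusted p = 1.29e-05) and was higher in dual-treated than in lungs given LPS alone (1.63 ± 0.166, edgeR adjusted p = 4.58e-05). *Ly86*, whose product pairs with the inhibitory receptor CD180, rose by 1.12 with the dual treatment (edgeR adjusted p = 0.0377), a call lost without control mouse 2 or 4 or dual-treated mouse 2 or 5 (edgeR adjusted p = 0.123, 0.133, 0.231 and 0.0506).

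Genes known as targets of the MyD88 and TRIF routes were also looked at. How far their levels in whole lung at 24 h came from either route, or from other signals, was not tested. All 8 genes of the MyD88 branch list rose with LPS, 3 were higher with the dual treatment, and 7 were lower in dual-treated than in lungs given LPS alone. *Cxcl2*, a neutrophil chemokine, had 3.77, 2.72 and 6.76 CPM in control, 718, 434 and 385 CPM in LPS, and 10.6 and 6.89 CPM in dual-treated mice, and its log2FC with LPS was 6.85 ± 0.404 (edgeR adjusted p = 1.33e-06). *Tnf* rose least (0.89 ± 0.308, edgeR adjusted p = 0.0268), at 23.2, 11.3 and 9.43 CPM in LPS mice. That call was lost without control mouse 2 or 4 or LPS mouse 1 (edgeR adjusted p = 0.0619, 0.0833 and 0.0873), and the log2FC was 0.40 without LPS mouse 1 and 1.57 with it alone. Between the LPS groups *Il6* was lowest, with a log2FC of -6.04 ± 0.855 (edgeR adjusted p = 0.000284), which ranged from -7.33 without dual-treated mouse 2 to -5.21 without LPS mouse 1. *Il1b* had the smallest called difference there, at -1.16 ± 0.221 (edgeR adjusted p = 0.00163). Against control, *Cxcl1* rose with the dual treatment by 2.37 (edgeR adjusted p = 0.0261), a call lost without any 1 control mouse or dual-treated mouse 2 (edgeR adjusted p from 0.0665 to 0.213), and *Nfkbia*, the inhibitor of NF-kappaB, rose by 1.19 ± 0.197 (edgeR adjusted p = 0.00387).

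All 5 tested genes of the TRIF branch target list rose with LPS, 3 were higher with the dual treatment, and 5 were lower in dual-treated than in lungs given LPS alone. *Cxcl10*, an interferon-induced chemokine, had 11.8, 11.1 and 11.8 CPM in control, 4967, 2007 and 2329.5 CPM in LPS, and 28.2 and 7.99 CPM in dual-treated mice. Its log2FC was 8.07 ± 0.584 with LPS (edgeR adjusted p = 3.32e-06) and -7.42 ± 0.683 between the LPS groups (edgeR adjusted p = 2.55e-05), and the latter was -8.61 without dual-treated mouse 2 and -6.79 without mouse 5. With LPS mouse 1 alone these values were 8.75 and -8.11. *Isg15* rose least of the list with LPS, with a log2FC of 4.13 ± 0.348 (edgeR adjusted p = 7.55e-06), and most with the dual treatment, with 1.88 ± 0.346 (edgeR adjusted p = 0.00669), the latter 1.07 without dual-treated mouse 2. *Ccl5* rose by 1.18 ± 0.233 with the dual treatment (edgeR adjusted p = 0.00959). *Ifnb1*, the interferon gene itself, was too low to be tested, with 1, 2 and 1 counts in control, 6, 9 and 11 in LPS, and 1 and 0 in dual-treated mice. With LPS mouse 1 alone in its group, 8 MyD88 branch and 5 TRIF branch target genes, 13 brakes, 6 TRIF branch genes and 8 genes below TRAF6 were higher with LPS, as with all mice, and 4 of the other Toll-like receptors were higher and 4 lower.

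The genes whose levels most resembled each member over the 8 libraries were found by Pearson's r of log2 CPM among 12153 genes with a mean of at least 5 CPM. Because the groups lie apart, such values mainly reflect the group levels and are a description only. *Cd14* was nearest to *Tnfaip3*, *Mybbp1a* and *Nfkbia* (r = 0.999, 0.999 and 0.998), of which *Tnfaip3* and *Nfkbia* are NF-kappaB targets. *Tlr4* was nearest to *Hhipl1*, *Hif3a* and *Rabif* (r = 0.994, 0.987 and 0.979). *Irak4* was nearest to *Adgre4*, *Tlr1* and *Cd37* (r = 0.985, 0.982 and 0.981), genes known from leukocytes. *Myd88* was nearest to *Nlrc5*, *Gtf2f2* and *Farsa* (r from 0.997 to 0.998), *Traf6* to *Kat7*, *Prpf18* and *Rnf4* (r = 0.999 for each), and *Lbp* to *Sharpin*, *Sec24c* and *Tm9sf1* (r from 0.994 to 0.996). For *Ly96* they were *Atp5mg*, *Gm10154* and *Ndufa8*, for *Ticam1* *Nucb2*, *Olr1* and *Cd84*, for *Ticam2* *Prkdc*, *Apbb3* and *Copg2*, and for *Irak1* *Fcamr*, *Mindy1* and *Trpv4*, with r between 0.954 and 0.993.

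Promoter sequence was read for the members that RefSeq's table of build GRCm38.p6 holds, each from 250 bases before to 50 after the gene start. The table matched 5 of the 10 genes, *Myd88*, *Ticam1*, *Irak1*, *Irak4* and *Traf6*. *Tlr4*, *Cd14*, *Ly96*, *Lbp* and *Ticam2* were not matched. Both strands were searched for GAAANNGAA, a form of the interferon-stimulated response element, for TGANTCA, the AP-1 site, and for the kappaB consensus. These are held by 8.56%, 7.81% and 8.46% of 32851 promoter windows. *Myd88* and *Traf6* are shown because they rose together with LPS and were lower in dual-treated lungs, and *Irak1* because it holds the other match among the members. In *Myd88* the capitals mark the match to GAAANNGAA, which does not overlap another motif. In *Irak1*, which has 2 overlapping windows in the table, they mark the kappaB match, whose letters match on both strands. *Traf6* has none of the 3 motifs in this window, nor have *Ticam1* and *Irak4*. A match is a description of the letters and not a binding site. The windows are *Myd88* at chr9:119339969-119340268 (minus strand), *Irak1* at chrX:74023872-74024171 (minus strand) and *Traf6* at chr2:101678170-101678469 (plus strand) of GRCm38.p6, written 5′ to 3′.
Myd88: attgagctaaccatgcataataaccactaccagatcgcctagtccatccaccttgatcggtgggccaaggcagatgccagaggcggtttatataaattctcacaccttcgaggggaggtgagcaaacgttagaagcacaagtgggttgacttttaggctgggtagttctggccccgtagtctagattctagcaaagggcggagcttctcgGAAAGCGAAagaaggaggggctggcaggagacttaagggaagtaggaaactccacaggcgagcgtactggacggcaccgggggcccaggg
Irak1: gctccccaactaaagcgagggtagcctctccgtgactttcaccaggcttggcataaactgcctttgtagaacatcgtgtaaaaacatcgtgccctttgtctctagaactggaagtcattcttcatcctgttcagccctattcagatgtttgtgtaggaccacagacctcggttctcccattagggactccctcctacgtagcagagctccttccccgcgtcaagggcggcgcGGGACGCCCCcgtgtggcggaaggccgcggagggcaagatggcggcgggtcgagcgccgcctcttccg
Traf6: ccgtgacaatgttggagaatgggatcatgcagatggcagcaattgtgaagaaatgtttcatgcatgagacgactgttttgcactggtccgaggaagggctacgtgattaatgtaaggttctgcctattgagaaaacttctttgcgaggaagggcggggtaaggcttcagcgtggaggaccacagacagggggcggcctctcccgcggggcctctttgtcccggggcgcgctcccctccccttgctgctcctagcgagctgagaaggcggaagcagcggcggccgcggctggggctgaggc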

How the data were processed

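The authors extracted total RNA from lung tissue, sequenced paired-end libraries and, per the labels' processing notes, used FastQC 0.11.9, Trim Galore, HISAT2 2.2.1, featureCounts 2.0.1 and the GRCm39 genome. They deposited raw counts per gene for each mouse, without normalization. The annotation release, the strand setting and the treatment of reads with several placements are not given in the sources used here. Of 55416 identifiers, 54749 matched GENCODE M39, which gave symbols, coordinates and exon lengths. Total counts ran from 19061949 to 20908608 per library, and replicate libraries differed by more than sampling noise. The fits used edgeR 4.0.16 under R 4.3.3 (TMM, filterByExpr by group, quasi-likelihood test, 1 group factor on all 8 libraries, 5 residual degrees of freedom). Benjamini-Hochberg adjustment covered 18560 genes. Standard errors are the size of the log2FC over the square root of F. The log2 CPM used a prior count of 2. The procedure was also run on simulated counts in which few genes changed, as many up as down. That run does not cover the case in which most genes change, as with LPS here. Ratios to *Tlr4* were compared by exact two-sided permutation. Alternatives were DESeq2 1.42.0, RLE and total-count scaling, other filters, only the compared groups, other call rules and leaving out each mouse. Named genes are all members, *Tirap*, the called genes with the highest and lowest log2FC of each other pathway list in each comparison, the most abundant gene of each cell marker list, and the 3 genes most like each member. Many of these genes also have values printed in comparisons beyond this rule, chosen after the values were seen. Genes sharing exons with a member are also named. *Hsp90b1*, *Map3k7*, *Tab1*, *Ccr2*, *Ly6g*, *Alb*, *Ifnb1* and the genes with 0 counts were named after their values were seen. *Gm69151*, which shares 235 exon bases with *Tlr4* on the opposite strand, was not among the counted genes. *Mir718* and *Mir5132*, which share 88 and 71 bases with *Irak1* on the same strand, had 0 counts. The members and lists were chosen with earlier results of these data known.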

Additional observations from a re-analysis of the deposited data

How the results depend on the processing

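Over the alternatives for each member, 145 of 169 with LPS against control gave the same direction and the same side of the threshold. So did 156 of 169 for the dual treatment against control and 159 of 169 between the LPS groups. These include both rules with a fold over 2, which reuse the main fit and so cannot change direction. *Lbp*, *Cd14*, *Myd88* and *Traf6* with LPS, and *Cd14*, *Lbp*, *Myd88* and *Traf6* between the LPS groups, kept their calls under every alternative. The number of members lower with LPS, 2 in the text, was 1 under DESeq2, RLE size factors, at least 10 counts in every library (where *Ticam2* was not tested), both rules with a fold over 2, and LPS mouse 1 alone, an alternative chosen after seeing the data. It was 3 under total-count scaling, where the number higher fell from 6 to 4, and ranged from 1 to 2 as each mouse was left out. The number of members higher with the dual treatment, 4 in the text, was 2 with a fold over 2 and an unadjusted p under 0.05, and 1 with a fold over 2 and an adjusted p under 0.05. It was 6 with only the compared groups in the fit and 5 with no filter, and ranged from 3 (without dual-treated mouse 2) to 5 (without LPS mouse 7) as each mouse was left out. The number higher in dual-treated than in lungs given LPS alone, 3 in the text, was 1 under both rules with a fold over 2, 4 under total-count scaling, 2 with at least 10 counts in every library and 2 to 3 as each mouse was left out. The fold rules differ from the main one by construction, since both ask for a fold over 2 and 1 of them takes the unadjusted p, under which *Ticam2* was also called with the dual treatment. For the other changes the cause was not tested. Values that turned in sign were all uncalled: *Ly96* (0.13) and *Irak1* (0.28) between the LPS groups and *Ticam1* with LPS (-0.21) under total-count scaling, *Ticam1* with LPS from -0.04 without control mouse 2 to 0.16 without LPS mouse 7, *Irak1* between the LPS groups (0.06 without dual-treated mouse 5, 0.08 with LPS mouse 1 alone) and *Traf6* with the dual treatment (-0.04 without dual-treated mouse 2, 0.23 without dual-treated mouse 5). Spearman's rho was tied at 1 for most of the genes nearest to a member, so it does not tell which are nearest. No paired analysis was made. The paper states that mice were put into the groups at random, and an equal mouse number in different groups does not mark a pair. Depth limits *Ticam2* most, with 1 to 9 counts in LPS libraries.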
